A study of Homo sapiens with 6 samples.

Results

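The KLF genes encode Krüppel-like factors, zinc-finger proteins that bind GC-rich and CACCC sequences, and 10 of them are described here: KLF1, KLF2, KLF3, KLF4, KLF6, KLF9, KLF10, KLF11, KLF13 and KLF16. They were taken as a named list, 10 of the 19974 protein-coding genes on chromosomes 1-22 and X, and chromatin accessibility around each was read from ATAC-seq peak lists. ATAC-seq uses a transposase that inserts sequencing adapters into open DNA. U937 cells, a human cell line with monocyte features that was started from a histiocytic lymphoma, were used. In 3 independent clones, labelled ΔNSPs, a transduced plasmid was used to deplete 3 neutrophil serine proteases at once, those encoded by CTSG (cathepsin G), ELANE (elastase) and PRTN3 (proteinase 3), and 3 control lines carried control plasmids. Cells of both groups were kept under 500 µg/ml geneticin, treated with DNase at 200 units/ml for 30 min, washed, and frozen in medium with 5% DMSO before the assay. The labels name no batch, and each clone or line is 1 library, so clone and library cannot be told apart. The comparison asked which sites were open in the protease-depleted clones and in the control lines.

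Krüppel-like factors share a DNA-binding end and differ in the partners they recruit. KLF1, KLF2, KLF4 and KLF6 are known mainly as activators, KLF3 as a repressor that works through the corepressor CtBP, and KLF9, KLF10, KLF11, KLF13 and KLF16 as factors that can bring in the SIN3A-histone deacetylase complex. In monocytes KLF4 and KLF2 are best known, KLF4 as a factor of monocyte differentiation and KLF2 as a brake on inflammatory activation. KLF1 is the factor of red cell precursors and is not a monocyte gene.

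There was a separate peak list for each library, on build GRCh38. Every peak carried the authors' own fold enrichment over the local background (a linear ratio) and their −log10 p and −log10 q, and a site without a peak had no value. On chromosomes 1-22, X and Y 14262, 24981 and 2188 peaks were listed for ΔNSPs clones 1, 2 and 3, against 13, 4 and 2 for control lines 1, 2 and 3. The mean was 13810 ± 11403 peaks in the clones and 6.33 ± 5.86 in the control lines (SD, n = 3 each). The group means differed by 3.19 on the log10(peaks + 1) scale, with an exact two-sided permutation p = 0.1, the smallest that 3 libraries against 3 allow. The lowest −log10 q in a list was 2.00 in each clone and 2.07, 2.04 and 2.02 in control lines 1, 2 and 3. The lowest −log10 p was 4.89, 4.86 and 5.75 in clones 1, 2 and 3. It was 7.45, 7.79 and 7.998 in control lines 1, 2 and 3. The lists thus began at a similar q, and those of the control lines at a stricter p. Both are the lowest values seen in a list and not a stated limit. Read totals were not given, so depth is unknown and its part in the difference was not tested. Of 9 monocytic marker genes, 2 (CD68 and ITGAM) had a peak within 1000 bp of a gene end in 2 or more clones, where 23.3% of all genes had one, and that of CD68 was also counted for EIF4A1. CD14, CSF1R, CD33 and CD4 had one in clone 2 alone, shared with HMGXB3 at CSF1R and with GPR162 at CD4, and LYZ, SPI1 and FCGR1A had none. The same count was 0 of 3 for epithelial, 0 of 3 for B cell and 1 of 3 (CD3E) for T cell markers.

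Start sites and promoter letters came from RefSeq (GRCh38.p14) and matched 8 of the 10 genes, while KLF3 and KLF10 had no entry. In 5 of the 8, namely KLF4, KLF6, KLF9, KLF13 and KLF16, a clone had a peak within 1000 bp of a start site. The 250 bases upstream of those start sites are shown because the peaks of KLF4, KLF6, KLF13 and KLF16 reach into them and those of KLF9 do not. Each is written 5′ to 3′ on the gene's strand, ending at the base before the start. Capitals mark the GC box (GGGCGG or its reverse complement CCGCCC) and the CACCC box (CACCC or GGGTG), the sequences Krüppel-like and SP factors bind.
KLF4 (chr9:107489770-107490019, minus strand): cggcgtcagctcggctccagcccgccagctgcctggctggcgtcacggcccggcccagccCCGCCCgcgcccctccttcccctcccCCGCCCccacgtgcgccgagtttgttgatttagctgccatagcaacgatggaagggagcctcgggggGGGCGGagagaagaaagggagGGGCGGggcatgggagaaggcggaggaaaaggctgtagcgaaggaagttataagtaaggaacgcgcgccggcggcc
KLF6 (chr10:3785210-3785459, minus strand): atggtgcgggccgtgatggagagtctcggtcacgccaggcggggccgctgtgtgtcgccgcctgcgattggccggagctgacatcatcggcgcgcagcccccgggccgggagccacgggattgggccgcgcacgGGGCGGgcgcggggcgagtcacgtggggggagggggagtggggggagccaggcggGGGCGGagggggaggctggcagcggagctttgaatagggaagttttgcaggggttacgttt
KLF9 (chr9:70414658-70414907, minus strand): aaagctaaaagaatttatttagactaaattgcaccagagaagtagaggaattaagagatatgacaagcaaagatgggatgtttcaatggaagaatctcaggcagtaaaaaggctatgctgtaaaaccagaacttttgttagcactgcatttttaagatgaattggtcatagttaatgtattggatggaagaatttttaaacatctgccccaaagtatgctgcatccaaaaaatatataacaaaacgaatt
KLF13 (chr15:31326585-31326834, plus strand): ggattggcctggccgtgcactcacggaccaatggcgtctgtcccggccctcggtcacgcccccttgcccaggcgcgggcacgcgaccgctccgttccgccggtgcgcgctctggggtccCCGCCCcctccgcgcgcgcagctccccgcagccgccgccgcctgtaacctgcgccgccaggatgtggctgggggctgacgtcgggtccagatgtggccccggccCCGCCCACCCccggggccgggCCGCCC
KLF16 (chr19:1863580-1863829, minus strand): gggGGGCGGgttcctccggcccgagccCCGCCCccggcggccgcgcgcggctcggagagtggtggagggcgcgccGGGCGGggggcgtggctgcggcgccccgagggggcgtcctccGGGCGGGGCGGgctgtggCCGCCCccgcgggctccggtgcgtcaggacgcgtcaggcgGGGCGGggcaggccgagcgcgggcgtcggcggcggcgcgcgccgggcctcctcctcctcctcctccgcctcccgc
The GC box was found, on both strands together, 4 times at KLF4, 2 times at KLF6, 3 times at KLF13 and 7 times at KLF16. At KLF13 a CCGCCC and the CACCC overlap. KLF9 held neither motif. Its upstream sequence was 32.4% G and C, against 69.2% at KLF4, 72.4% at KLF6, 78.8% at KLF13 and 86.4% at KLF16, and a median of 58.0% over all 35116 promoters of the table. A GC box stood in 42.6% and a CACCC box in 54.7% of those promoters. A match describes these letters and no binding.

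No control line had a peak within 50 kb of any of the 10 genes, where 0.0701%, 0.01% and 0.015% of all genes had one in control lines 1, 2 and 3. In the clones, 8, 5 and 3 of the 10 had a peak within 1000 bp of either gene end (a gene-end peak) in clones 1, 2 and 3. Over all protein-coding genes the share was 39.1%, 29.6% and 6.55% in the same clones. Requiring 2 or more clones and no control line left 5 of the 10 (KLF1, KLF4, KLF9, KLF13 and KLF16), where the share of all genes was 23.3%. KLF1 and KLF16 had one in all 3 clones, as did 5.40% of all genes. Without clone 1 or without clone 2 the count of 5 became 2 (KLF1 and KLF16), as both remaining clones were required, and the share of all genes became 5.63% without clone 1 and 6.21% without clone 2. Any clone sufficed for 9 of the 10 against 46.6% of all genes, and KLF11 had no gene-end peak. The 10 genes were named with earlier results of these data known. Among the other 8 KLF genes (KLF5, KLF7, KLF8, KLF12, KLF14, KLF15, KLF17 and KLF18) no clone had a gene-end peak. Over all 18 KLF genes the share meeting the rule of 2 clones was therefore 27.8%, near the 23.3% of all genes. A gene-end peak in clones 1, 2 and 3 was present at 44.4%, 27.8% and 16.7% of the 18. The shares of all genes were 39.1%, 29.6% and 6.55%. Any clone sufficed for 9 of the 18, and all 3 clones had one at 2 of the 18.

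**Figure D1:**
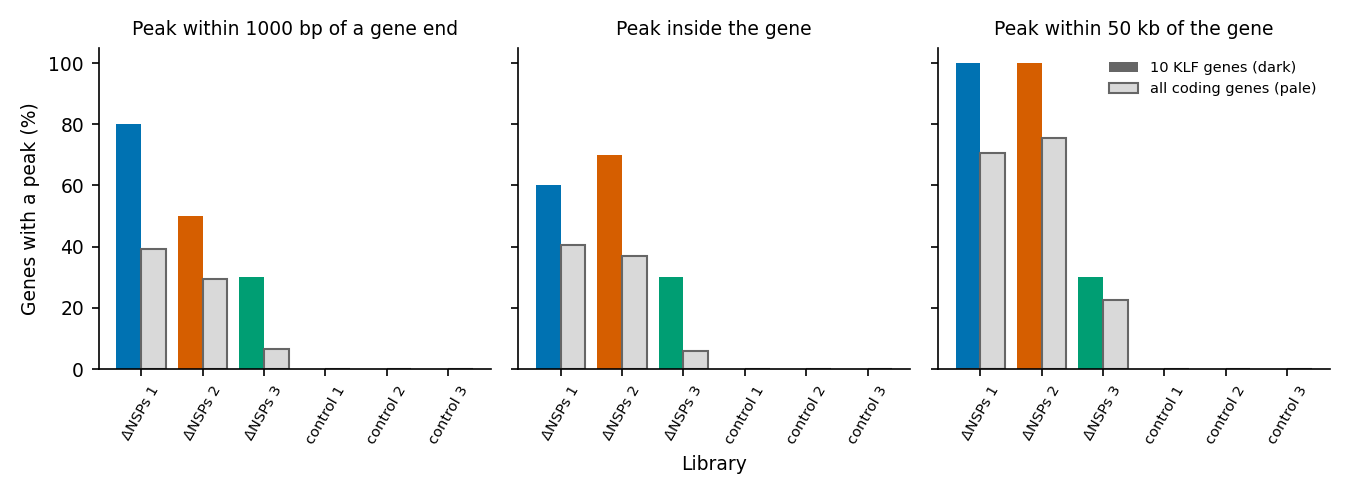
Share of genes with a peak (%, vertical axis) in each library (horizontal axis), within 1000 bp of a gene end, inside the gene, or within 50 kb, for the 10 KLF genes (dark bars) and for all 19974 protein-coding genes (pale bars). Clone 1 has a gene-end peak at 80.0% of these 10 KLF genes and clone 3 at 30.0%, and the control lines have none.

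A peak inside the gene was present at 6, 7 and 3 of the 10 in clones 1, 2 and 3, against 40.6%, 37.1% and 5.77% of all genes. Of the 10, 6 had one in 2 or more clones (KLF1, KLF6, KLF9, KLF10, KLF13 and KLF16), against 24.6% of all genes. Within 50 kb the counts were 10, 10 and 3, against 70.5%, 75.4% and 22.5%. All 10 thus reached 2 clones at this distance, but so did 62.5% of all genes. Within 1000 bp of a known start site, 5, 3 and 1 of 8 KLF genes had a peak in clones 1, 2 and 3, against 42.1%, 32% and 6.91% of the 15812 genes with a start site in the table. There, 3 of the 8 reached 2 clones (KLF9, KLF13 and KLF16), against 25.4% of those genes. KLF1 and KLF4 met the gene-end count without meeting this one. Inside the gene, within 50 kb and at start sites, no count over all 18 KLF genes is given. The 10 were named with earlier results known, so these shares cannot be read as an excess over all genes. All 3 members with a gene-end peak in clone 3 (KLF1, KLF2 and KLF16) lie on chromosome 19, and none of the other 7 had one. Chromosome 19 held 15.9% of the peaks of clone 3, against 6.17% in clone 1 and 6.74% in clone 2. Of the 1451 protein-coding genes there, 19% had a gene-end peak in clone 3, against 5.58% of genes elsewhere. The part of this chromosome's share in the KLF counts of clone 3 was not tested.

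**Figure D2:**
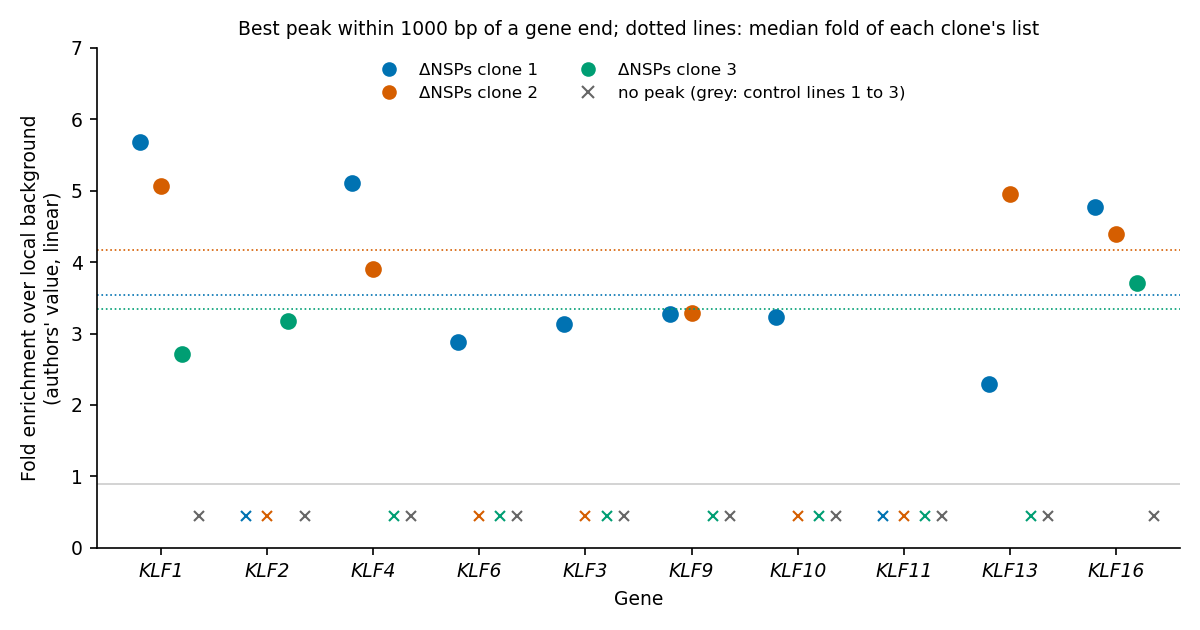
Fold enrichment (authors' linear value, vertical axis) of the gene-end peak with the highest −log10 q at each KLF gene (horizontal axis) in the 3 ΔNSPs clones; crosses mark no peak, and dotted lines give the median fold of each clone's list. KLF1 and KLF16 have a point in all 3 clones, and KLF11 has only crosses.

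The folds at gene ends were ordinary for their lists. The 12 gene-end peaks of clone 1 had folds of 2.29 to 5.68 with a median of 3.35, and 4 of them exceeded the list's median of 3.54. In clone 2 the 8 gene-end peaks ranged from 3.16 to 5.88 with a median of 4.15 against 4.16 for the list, and 4 exceeded it. Clone 3 had 3, from 2.71 to 3.70, and 1 exceeded the list's median of 3.35. The pile-up of reads and the local background behind a peak were solved from its fold and p. The gene-end summits had 10 to 59 reads in clone 1, 13 to 70 in clone 2 and 22 to 29 in clone 3, over backgrounds of 1.56 to 25.2, 1.38 to 21.5 and 5.21 to 10.1 reads.

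**Figure D3:**
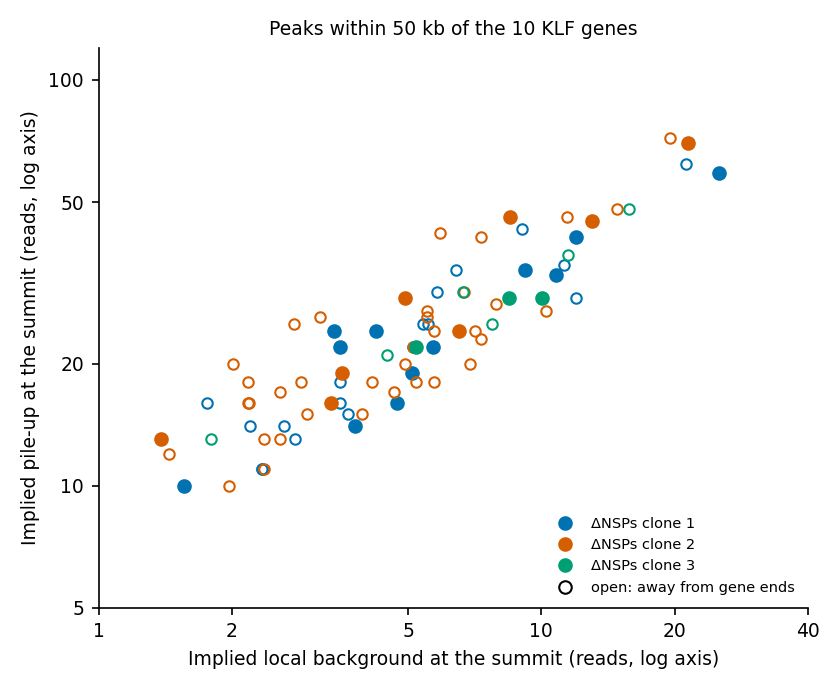
Implied pile-up at the summit (reads, log axis) against the implied local background (reads, log axis) for all peaks within 50 kb of the 10 KLF genes, filled for gene-end peaks and open for others. Gene-end and other peaks of the 3 clones overlap in range, and the largest pile-up at a gene end is 70 reads, at KLF13 in clone 2.

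KLF1, the erythroid activator of globin genes (chromosome 19, 12884422 to 12887201, minus strand), had its peak near the 3′ end and not at its start. The best gene-end summit had a fold of 5.68 in clone 1, 5.06 in clone 2 and 2.71 in clone 3, with a −log10 q of 9.37, 9.65 and 2.56 and a −log10 p of 13.3, 13.7 and 6.55, and no control line had a peak. The fold was above the list median in clones 1 and 2 and below it in clone 3. The intervals lay inside the gene, at 12885150 to 12885725 in clone 1, 12884996 to 12885292 in clone 2 and 12885150 to 12885275 in clone 3, and all 3 overlapped. Their pile-ups were 24, 29 and 29 reads over backgrounds of 3.40, 4.93 and 10.1. They began 574 to 728 bp from the 3′ end, so with a window of 500 bp KLF1 had no gene-end peak in any clone. A second site beyond the 3′ end was open in clone 1 (12883737 to 12883855, fold 4.30) and clone 2 (12883829 to 12883897, fold 5.88). Neither site touched the end of another gene. Within 1000 bp of the KLF1 start site no library had a peak. The 250 bases upstream of that start held no GC or CACCC box and 2 copies of CCAAT. The erythroid genes HBB and ALAS2 had no gene-end peak in any library.

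Around KLF1 lie 6 other protein-coding genes within 50 kb, and most of its flanking peaks belonged to their ends. All 3 clones had a peak at the lower-coordinate end of GCDH, 3.66 to 3.67 kb from KLF1, with folds of 2.31, 4.29 and 2.91 in clones 1, 2 and 3. GCDH encodes a mitochondrial dehydrogenase of lysine breakdown. Peaks at MAST1 (clones 1 and 2), DNASE2 (clone 2), SYCE2 (clone 2) and FARSA (clones 2 and 3) also lay at those genes' ends. A site inside SYCE2, at 12914154 to 12914382, was open in clones 2 and 3 with folds of 4.14 and 4.05.

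KLF2, which restrains activation of endothelial and myeloid cells (chromosome 19, 16324826 to 16328685, plus strand), had a gene-end peak in clone 3 alone. It lay at 16328446 to 16328563, 122 bp inside the 3′ end, with a fold of 3.18, a −log10 p of 8.16, a −log10 q of 3.80 and 29 reads over a background of 8.45. Clones 1 and 2, whose lists are longer, had none there, and the control lines had none either. The strongest peak near KLF2 was in clone 2, 1.84 kb past the 3′ end at 16330527 to 16330591, with a fold of 6.91, a −log10 q of 12.0 and rank 2382 of 24981. No 2 clones shared any of the 6 sites within 50 kb. The single clone 1 peak lay 40.9 kb away at the far end of KLF2-DT, the divergent non-coding gene. The KLF2 promoter itself, with 80.0% G and C and 4 GC boxes in its 250 upstream bases, had no peak in any library.

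KLF4, the factor of monocyte differentiation (chromosome 9, 107484852 to 107489769, minus strand), was counted in 2 clones, but at opposite ends. Clone 1 had a peak upstream of the start, at 107489970 to 107490309, with a fold of 5.10, a −log10 p of 11.3, a −log10 q of 7.59 and 22 reads over 3.51. Its summit lay 265 bp upstream, and the interval covered the outermost 50 of the 250 bases printed above. In clone 2 the peak lay 502 bp beyond the 3′ end, at 107484283 to 107484350, with a fold of 3.91, a −log10 q of 3.69 and 16 reads over 3.35. Clone 3 and the control lines had no peak within 50 kb. At the start site KLF4 therefore had a peak in a single clone. No other gene's end shared either peak.

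KLF6, an activator found in most tissues (chromosome 10, 3775996 to 3785209, minus strand), had a start-site peak in clone 1 alone. At 3785353 to 3785572 the fold was 2.88, the −log10 q 4.53 and the pile-up 33 reads over 10.8, with the summit 284 bp upstream. The interval covered 107 of the printed bases, those 144 to 250 bases upstream. A site inside the gene was shared by clones 1 and 2, at 3782894 to 3783021 with a fold of 4.06 and a −log10 q of 6.24 in clone 1 and at 3782940 to 3783063 with 3.24 and 2.39 in clone 2. Its summits were 2226 and 2205 bp downstream of the start. Clone 3 and the control lines had none. With a window of 2500 bp this internal site brought KLF6 to 2 clones.

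KLF3, the repressor that binds CtBP (chromosome 4, 38664199 to 38701517), had low-ranked peaks alone. Clone 1 had a peak 471 bp outside the lower-coordinate end, at 38663508 to 38663728, with a fold of 3.13 and a −log10 q of 2.07, rank 13839 of 14262. That peak lay within KLF3-AS1, an antisense gene that overlaps this end. Clone 2 had a separate peak inside the gene, 3.08 kb from the same end, with a fold of 2.83 and a −log10 q of 2.14, rank 24066 of 24981. The fold of each lay below its list's median, and clone 3 and the control lines had no peak within 50 kb.

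**Figure D4:**
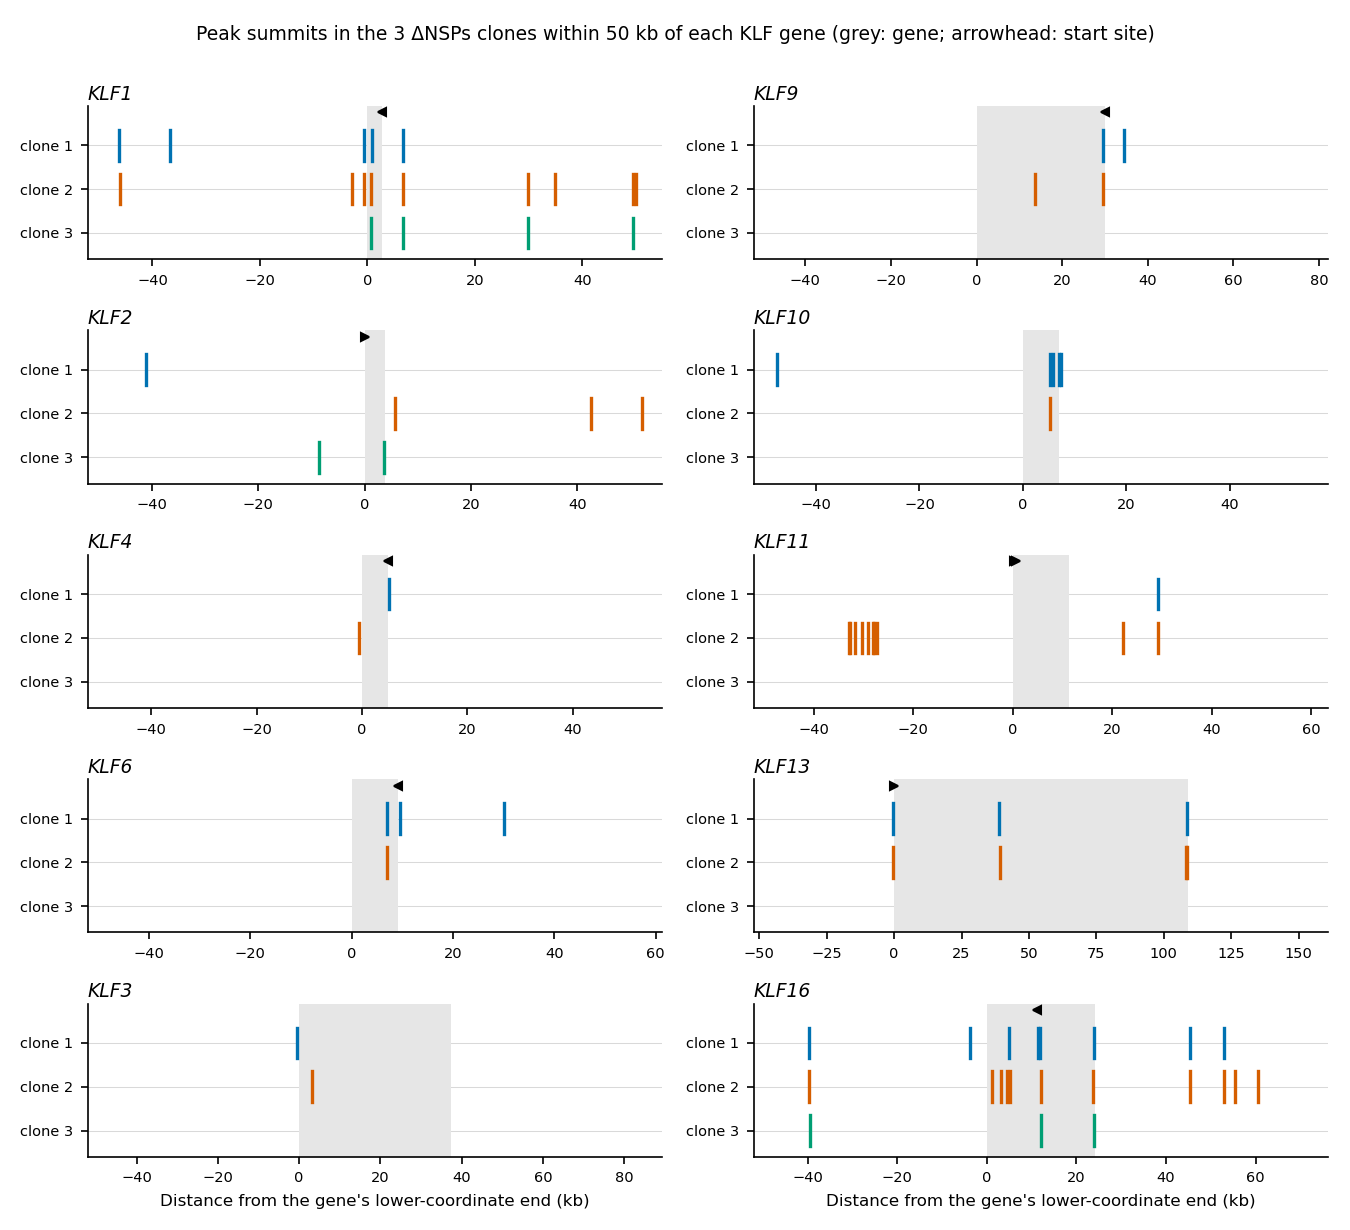
Summits of peaks in the 3 ΔNSPs clones (coloured bars, 1 row for each clone) by distance from the gene's lower-coordinate end in kb (horizontal axis), with the gene in grey and arrowheads at start sites of the 8 genes that have one in the table. KLF1 and KLF16 are the genes with sites open in all 3 clones, and clone 2 has a group of 8 peaks below KLF11.

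KLF9, which responds to glucocorticoid and thyroid hormones (chromosome 9, 70384604 to 70414657, minus strand), had a site open in clones 1 and 2 just downstream of its start. Clone 1 had a broad interval of 714 bp, at 70413726 to 70414439, with a fold of 3.27, a −log10 p of 6.32, a −log10 q of 3.20 and 19 reads over 5.11. Clone 2 had a peak within it, at 70413958 to 70414140, with a fold of 3.28, a −log10 p of 12.0, a −log10 q of 8.10 and 45 reads over 13.0. The folds were alike while the pile-up in clone 2 was higher. The summits stood 434 and 572 bp downstream, so the peaks did not reach the printed bases. Both intervals were also counted for the end of KLF9-DT, a divergent non-coding gene whose lower-coordinate end lies inside KLF9, and that of clone 1 for LOC124900273. Clone 1 had a further peak in KLF9-DT, 4.32 kb upstream of KLF9 at 70418978 to 70419281, with a fold of 4.71 and a −log10 q of 10.4, higher than at the gene end. Clone 3 and the control lines had none.

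KLF10, induced by TGF-β and known for curbing growth (chromosome 8, 102648784 to 102655725), carried several peaks at its upper-coordinate end in clone 1. The best, at 102655604 to 102655822, crossed that end with a fold of 3.23, a −log10 q of 7.22 and 41 reads over 12.0. Others lay at 102656078 to 102656263 (fold 3.43) and 102654666 to 102654800 (fold 2.97). The peaks at and beyond the end were also counted for the non-coding LOC101927245. A site inside the gene was shared, at 102653951 to 102654148 in clone 1 with a fold of 2.84 and 62 reads over 21.2, and at 102653929 to 102654012 in clone 2 with 3.10 and 48 reads over 14.8. It lay 1.58 and 1.71 kb from the gene end, outside the window of 1000 bp, and with 2500 bp KLF10 was counted in 2 clones. Folds at the ends of KLF10 and inside it were below the list medians, although the −log10 q of the shared site was 8.88 and 7.86. Clone 3 and the control lines had no peak within 50 kb.

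KLF11, the close relative of KLF10 (chromosome 2, 10043550 to 10054836, plus strand), had no peak at either end or inside in any library. The 250 bases before its start sites held 2 and 6 GC boxes, yet no peak lay within 1000 bp of them. Clone 2 had a group of 8 narrow peaks 27.3 to 32.8 kb below the gene, over 5.70 kb at 10010594 to 10016288, outside any coding or long non-coding gene. Their folds were 2.49 to 3.72, all below the list median, their −log10 q 2.06 to 5.10 and their pile-ups 17 to 28 reads, and no other library had a peak there. The single site shared by clones 1 and 2 (10072681 to 10072854, folds of 4.21 and 3.09) lay 17.8 and 17.9 kb above KLF11, inside CYS1. Also inside CYS1, 10.8 kb above KLF11, clone 2 had its best peak within 50 kb, at 10065659 to 10065744, with a fold of 5.34 and a −log10 q of 6.02, and this fold was above the list median.

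KLF13, a regulator of the chemokine gene CCL5 in T cells (chromosome 15, 31326835 to 31435665, plus strand), was open at both ends in clones 1 and 2. Across the start, clone 1 had an interval of 931 bp, at 31326252 to 31327182, with a fold of 2.29, a −log10 p of 8.58, a −log10 q of 5.17 and 59 reads over 25.2. Clone 2 had a peak of 230 bp inside it, at 31326479 to 31326708, with a fold of 3.16, a −log10 p of 16.5, a −log10 q of 12.2 and 70 reads over 21.5. The summits lay 263 and 230 bp upstream, and the intervals covered all 250 and the outer 124 of the printed bases. Pile-ups at this start were the highest at any gene end of the 10 genes, but on a high background, and both folds were below the list medians. At the 3′ end clones 1 and 2 shared a site (31435494 to 31435823) with folds of 3.43 and 3.33, and clone 2 had a stronger peak 522 bp inside the end, at 31434956 to 31435143, with a fold of 4.96 and a −log10 q of 14.9. An internal site 38.9 to 39.1 kb from the start was shared as well, with a fold of 3.77 and a −log10 q of 3.54 in clone 1 and 6.22 and 17.4 in clone 2. That clone 2 peak ranked 899 of 24981, the highest rank of any peak within 50 kb of the 10 genes in clone 2. Clone 3 and the control lines had none, and no neighbour's end shared these peaks.

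KLF16, a GC-box factor that can recruit SIN3A (chromosome 19, 1852399 to 1876536, minus strand), had sites open in all 3 clones at its upper end and near its RefSeq start site. At the upper end the folds were 4.77, 4.40 and 3.70 in clones 1, 2 and 3, with a −log10 p of 11.3, 8.84 and 8.08 and a −log10 q of 7.55, 5.28 and 3.74, and the control lines had no peak. Each fold was above its list's median. The intervals were nearly the same, at 1876135 to 1876287, 1876135 to 1876286 and 1876101 to 1876286, with 24, 19 and 22 reads over 4.24, 3.55 and 5.21. These peaks were shared with the end of ABHD17A, which encodes a depalmitoylating enzyme and has its lower-coordinate end at 1876810. The start site in the promoter table, at 1863579, lies inside the gene span.

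Near that KLF16 start site all 3 clones had a peak too. The shared site, at 1864219 to 1864494 in clone 1, 1864444 to 1864511 in clone 2 and 1864342 to 1864511 in clone 3, had folds of 3.76, 4.92 and 4.02 and a −log10 q of 4.86, 5.94 and 4.14. Its summits lay 695, 893 and 863 bp upstream. Clone 1 had another peak closer to the start, at 1863760 to 1863984, with a fold of 3.97 and its summit 197 bp upstream, and it covered the outer 70 of the printed bases. Further inside, towards the 3′ end, clones 1 and 2 shared a site at 1857255 to 1857574 with folds of 4.15 and 5.99. Clone 2 had 3 more between 1853539 and 1856914, of which that at 1856810 to 1856914 had a fold of 6.97, the highest of any peak within 50 kb of the 10 genes, and that at 1855495 to 1855623 had the highest −log10 q of the 3, at 13.6 with a fold of 5.06.

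**Figure D5:**
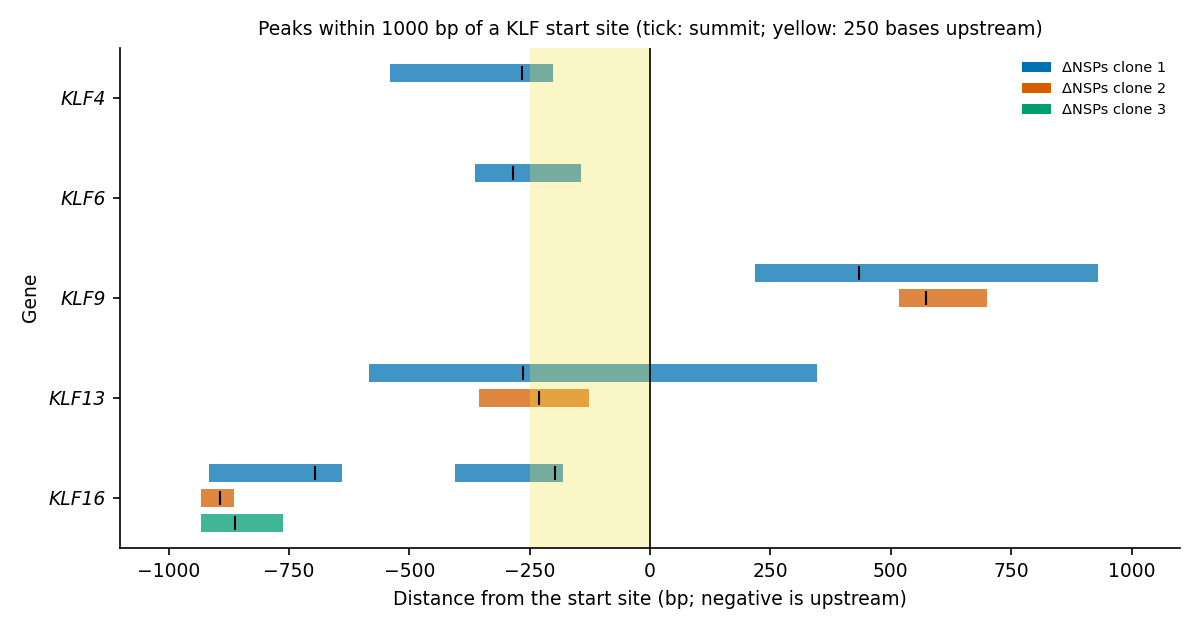
Peaks of the 3 ΔNSPs clones within 1000 bp of the start site of KLF4, KLF6, KLF9, KLF13 and KLF16, by distance in bp along the gene's strand (horizontal axis, negative is upstream); bars are intervals, ticks are summits and the yellow band is the 250 upstream bases. Peaks of KLF9 lie downstream, and KLF16 has a site in all 3 clones 695 to 893 bp upstream.

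Merging the lists gave 58 separate regions within 50 kb of the 10 genes. All of them had a peak in at least 1 clone and none had one in a control line. Over the whole series 32814 of 32822 regions had a peak in a clone and 16 in a control line, so nearly all regions are of this kind. Of the 58, 19 (32.8%) were shared by at least 2 clones, as were 20.9% of the 32822 regions of the whole series. All 3 clones shared 5 of the 58 and 1253 of the 32822. The 10 genes were named with earlier results known, and no such share of regions is given over all KLF genes. KLF1 held 6 and KLF16 held 6 of the 19, KLF13 held 3, and KLF6, KLF9, KLF10 and KLF11 held 1 each, while KLF2, KLF3 and KLF4 held none. By position, 15 of the 58 regions lay at an end of a KLF gene, 11 inside one away from its ends, 10 at the end of another protein-coding gene and 22 elsewhere. Of the 15, 1, that of KLF16 and ABHD17A, was shared with another protein-coding gene's end. KLF3, KLF4, KLF6 and KLF10 have no other protein-coding gene within 50 kb. Places were not counted over all regions, so this split has no share to stand beside. At the gene ends of 4 members (KLF1, KLF9, KLF13 and KLF16) the peaks of different clones fell in the same region. Over all protein-coding genes 21.6% had such a region. The other 8 KLF genes had no gene-end peak in any clone, so over the family this was 4 of 18. As the 10 were named with earlier results known, 4 of the 10 cannot be read as an excess.

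Of KLF1 and KLF16, both counted in all 3 clones, KLF1 had the smaller sum of −log10 q ranks within the lists. The genes whose 3 folds were nearest to those of KLF1, on the log2 scale and over 1078 other genes with a peak in all 3 clones, were NRTN (5.94, 5.28 and 2.85 in clones 1, 2 and 3; distance 0.11) and IFT122 (5.42, 4.83 and 2.89; distance 0.13). With 3 values for each gene, close neighbours are frequent in such a comparison.

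Relatives and partners of the Krüppel-like factors gave gene-end counts of 3 to 4 genes per list, where 23.3% of all genes had a peak in 2 or more clones. SP genes, whose proteins bind the same GC boxes, reached 2 clones at 4 of 9, namely SP1, SP2, SP3 and SP4, each in clones 1 and 2. SP3 had folds of 3.04 and 4.40 in clones 1 and 2. The best gene-end peaks of clones 1 and 2 did not overlap at SP3 or at SP4. SP6 and SP7 had none in any clone. Corepressors had 3 of 12, which were HDAC2, NCOR1 and KDM1A, the last a histone demethylase with folds of 3.11, 3.61 and 3.63 in clones 1, 2 and 3. NCOR1 was counted from peaks of clones 1 and 2 at opposite ends of the gene. SIN3A itself had a peak in clone 1 alone, with a fold of 3.66, shared with MAN2C1, and HDAC1 and HDAC3 had none. Coactivators and modifiers had 3 of 10 (EP300, FBXW7 and PIAS1). At PIAS1 the best gene-end peaks of clones 1 and 2 did not overlap. EP300, an acetyltransferase, had folds of 4.95 and 3.97 in clones 1 and 2.

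Regulators upstream of the KLF genes reached 2 clones at 4 of 15 (MAPK7, MEF2D, SMAD2 and SMAD3). MAPK7, the kinase ERK5 that induces KLF2 and KLF4 in endothelial cells, had a fold of 5.05 in clone 1, 6.83 in clone 2 and 2.56 in clone 3. Its peaks were also counted for B9D1. FOXO1 and MAP2K5 had none. No control line had a gene-end peak at any gene of these 4 lists. Apart from KDM1A, MAPK7 and the genes without a peak, the members of these lists were named after their values were seen.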

How the data were processed

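The data were 6 ATAC-seq peak lists, 1 for each of 3 ΔNSPs clones and 3 control lines of U937 cells, grouped by sample title. Per the submitters' processing notes the tools were FastQC, Bowtie2, Picard and MACS2 on build GRCh38, with versions, settings and any shift for the transposase not given in the sources used here. Peaks were called per library, as peak names show. The authors deposited for each summit a fold enrichment (a ratio), a −log10 p and a −log10 q, and a score, which was not used.

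Lines sharing an interval were counted as 1 peak with its summit of highest −log10 q, and 127 negative summit offsets were set to 0. Peaks were assigned to RefSeq gene spans (GRCh38.p14) by an overlap of 1 bp with windows of 1000 bp around both gene ends, the span, or 50 kb either side. Neighbours were protein-coding and long non-coding genes. Pile-up n and background b were solved from fold = (n + 1)/(b + 1) and a Poisson tail, and in up to 500 peaks per list 100% of pile-ups were whole within 0.05 read. The solver and the assignment were tested on simulated data. Motifs were counted on both strands of 250 upstream bases.

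Peak numbers were compared by exact permutation of the 6 libraries, two-sided, with 20 assignments. The genes are described by counts beside those over all protein-coding genes, without a set test. The genes and lists were chosen with earlier results of these data known. Named beyond the 10 genes were neighbours sharing a peak, genes of the lists with a peak in all 3 clones, the first 2 by symbol with none, and the 2 nearest to KLF1; some genes that this rule names are not reported here. Alternatives were other windows, thresholds, list lengths, overlaps and libraries left out. Python 3.11.15, NumPy 2.4.6, pandas 2.3.3, SciPy 1.17.1 and matplotlib 3.10.9 were used.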

Additional observations from a re-analysis of the deposited data

How the results depend on the processing

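Peak number kept its direction in every alternative, with a difference of 2.62 (fold enrichment of 5 or more) to 3.50 (without clone 3) on the log10 scale. Paired by number (replicate block, exact sign-flip test) it was 3.19 with p = 0.25, the smallest that 3 pairs allow, and nothing in the labels says that the numbers pair lines and clones. For counts of genes, the share of all genes under the same setting is in parentheses. Gene-end peaks in at least 2 clones were counted at 5 KLF genes (23.3%), and at 3 with a −log10 q of 5 or more (11%), 1 with a fold of 5 or more (0.661%), 1 with lists of equal length (4.90%), 2 with a window of 500 bp (20.6%), 8 with 2500 bp (27.1%), 3 at start sites alone (25.4%), 2 in all 3 clones (5.40%) and 9 in any clone (46.6%). Leaving out a clone gave 2 to 5, with KLF1 and KLF16 left without clone 1 (5.63%) or without clone 2 (6.21%), when 2 of 2 clones were required, and 5 without clone 3 (22.3%). In clone 1 the 8 (39.1%) became 5 by −log10 q (22.5%), 2 by fold (4.7%), 1 at equal length (9.53%) and 5 at start sites (42.1%). In clone 2 the 5 (29.6%) became 1 by fold (5.34%), 1 at equal length (5.31%), 2 with 500 bp (26%), 8 with 2500 bp (35.5%) and 3 at start sites (32%). In clone 3 the 3 (6.55%) became 0 by −log10 q (1.83%), 0 by fold (0.17%) and 1 at start sites (6.91%). Inside the gene the 6 (24.6%) became 1 by fold (1.48%), 2 at equal length (4.3%) and 2 in all 3 clones (4.26%), and 2 to 6 with a clone left out (4.78% to 23.3%). Within 50 kb the 10 (62.5%) became 5 by −log10 q (40.2%), 2 by fold (10.8%), 2 at equal length (21%) and 3 in all 3 clones (21.1%), and 3 to 10 with a clone left out (21.6% to 61.2%). Regions shared by 2 clones numbered 19, against 9 by −log10 q, 2 by fold, 9 by reciprocal overlap, 5 in all 3 clones and 58 in any clone, and 5 to 17 with a clone left out. Of the 32822 regions of the whole series, 6874 were shared by 2 or more clones, 1253 by all 3, and 32814 were in any clone. Under the other settings all regions were not counted, so the fall near the KLF genes cannot be set against theirs. Stricter settings keep fewer peaks by construction, and clone 3 has the shortest list. These counts cover the 10 genes named with earlier results known, with no count over all 18 KLF genes beside them. Depth is unknown, so a missing peak does not show closed chromatin.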

Other observations

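The flanks of KLF16 held further sites that belonged to other genes. At the end of ATP8B3, which encodes a phospholipid transporter, all 3 clones had a peak (1812445 to 1812895 on chromosome 19), with folds of 4.37, 3.56 and 3.04 and a −log10 q of 11.9, 15.2 and 4.68 in clones 1, 2 and 3. That of clone 1 ranked 949 of 14262, the highest rank within 50 kb of the KLF genes in that clone. Clones 1 and 2 shared a peak counted for an end of both SCAMP4 and ADAT3 (folds of 2.94 and 3.78) and another between genes, at 1897639 to 1897854, with folds of 4.70 and 6.50.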
